A study of Rattus norvegicus with 2 samples.

Results

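A peak list for the transcription factor specificity protein 1 (SP1) in rat left ventricle held 7049 intervals on chromosomes 1 to 20. Of these, 315 stood alone, with no other listed interval within 500 kb on either side. These isolated intervals were chosen from the measured peak positions themselves. Peaks that share an interval were joined, the gap to the nearest interval was measured on each side from edge to edge, and the first and last interval of each chromosome, 40 in all, were left out because they have a single neighbour. Chromatin immunoprecipitation followed by sequencing (ChIP-seq), which counts the DNA fragments crosslinked to a protein and recovered with an antibody against it, was performed on material from male Sprague-Dawley rats. There were 2 libraries, 1 precipitated with the SP1 antibody (IP) and 1 input of sheared chromatin without antibody, and both came from animals labelled sham. The sample titles speak of left ventricular myocardium and the cell type field of primary cardiomyocytes, without an age or a number of animals, while aged donor hearts are named for this assay in the study's text. A peak list carries no expression values, so the cell type could not be checked against marker genes.

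SP1 is a zinc-finger protein that binds GC-rich DNA, the GC box, and is present in most cell types. It is best known as an activator at promoters, many of them in CpG islands and at widely expressed genes, and such promoters lie close together in gene-rich chromosome regions. In the heart, as in other tissues, its sites are read by ChIP-seq as intervals of raised tag density around a summit.

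In the study, the experiment served to examine SP1 binding at the promoter of *Cirbp*, which encodes a cold-inducible RNA-binding protein. For the isolated intervals, the question is whether sites far from all others differed from the rest of the list in number per chromosome, width or enrichment. Each group has 1 library, and the membership rule used the same IP-over-input contrast as the enrichment values. The comparisons below are therefore descriptions without a test. Confidence intervals of shares and medians treat the listed intervals of 1 library as independent draws and show the spread over them. Those of single tag counts and folds cover the counting error of tags. None covers variation between animals or libraries, so overlap or separation of confidence intervals is no test of a difference. The submitters' processing notes name the build Rnor_6.0, whereas the scaffolds in the list carry names that this build does not use. The build is therefore uncertain, positions are given as deposited, counted from 1, and no statement is made on genes, exons, introns or untranslated regions at any interval. For the same reason no sequence is shown.

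The isolated intervals made up 4.47% of the intervals on chromosomes 1 to 20 (Wilson 95% confidence interval 4.01% to 4.98%), while the gaps that bordered them added up to 927 Mb. This was 38.4% of the 2412 Mb between the first and the last interval of all chromosomes. The gap to the nearer neighbour had a median of 819 kb (quartiles 608 and 1182 kb) and reached 5655 kb. For comparison, the nearer gap of the other 6734 intervals had a median of 37.3 kb. The gap to the farther neighbour had a median of 1871 kb (quartiles 1285 and 3135 kb) and reached 11568 kb. At 145 isolated intervals, or 46.0%, the longer gap was at least 2 times the nearer one, so that many lay toward one side of a sparse stretch. The nearer gap exceeded 1 Mb at 111 intervals and 2 Mb at 23, whereas 77 lay within 100 kb of the limit, at 600 kb or less.

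**Figure D1:**
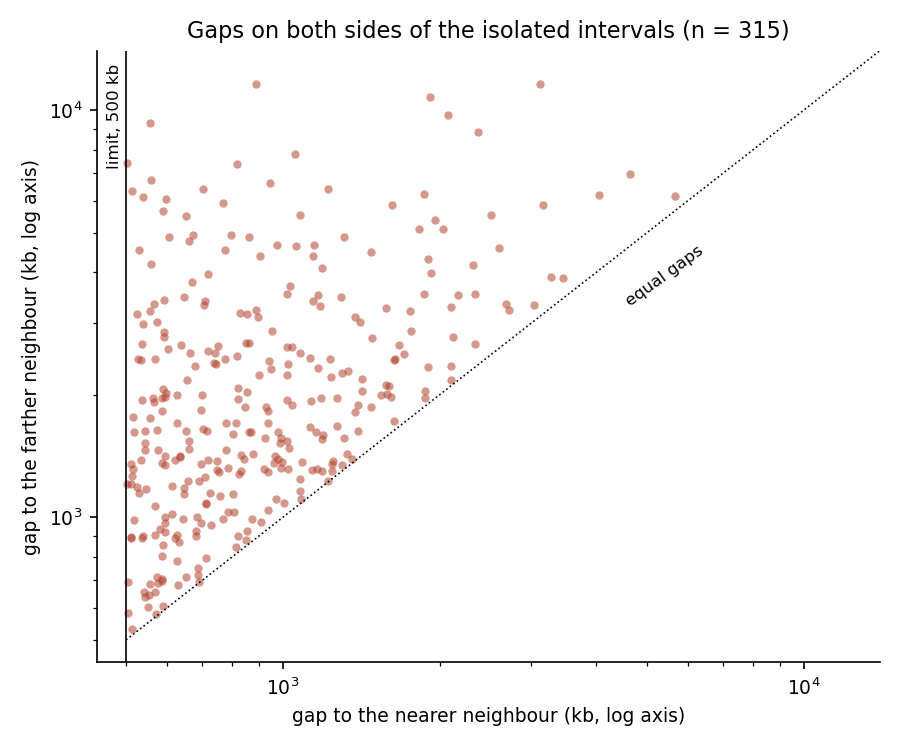
Each point is 1 of the 315 isolated intervals, placed by the gap to its nearer neighbour (horizontal, kb, log axis) and to its farther neighbour (vertical, kb, log axis). The solid line is the 500 kb limit of the rule and the dotted line marks equal gaps; the nearer gaps have a median of 819 kb and reach 5655 kb, and the farther gaps reach 11568 kb.

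Not every wide gap in the list belonged to an isolated interval. Of 7029 gaps between neighbouring intervals, 1100 exceeded 500 kb, and 536 of these (48.7%) bordered an isolated interval. The other 564 bordered no isolated interval; each of their flanking intervals had a neighbour within 500 kb on its far side or was the first or last of its chromosome. Of the 100 longest gaps, all of at least 3.54 Mb, 50 bordered an isolated interval. The longest gap in the list, 14.8 Mb on chromosome 2, did not.

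Per chromosome, the number of isolated intervals ranged from 5 to 39. Chromosome 2 held the most, 39 of its 421 intervals or 9.26% (Wilson 95% confidence interval 6.85% to 12.4%), followed by chromosome 4 with 32 of 371 or 8.63% (6.18% to 11.9%) and chromosome 1 with 31 of 895 or 3.46% (2.45% to 4.87%). These 3 chromosomes carried 32.4% of the isolated intervals and 23.9% of all intervals. Chromosomes 11, 13 and 14 had shares of 7.14%, 7.21% and 7.14%, from 12, 15 and 16 isolated intervals. The confidence intervals of these shares overlapped that of chromosome 2. At the other end, chromosome 10 had 13 of 678 or 1.92% (1.12% to 3.25%), chromosome 12 had 5 of 259 or 1.93% (0.827% to 4.44%) and chromosome 19 had 5 of 247 or 2.02% (0.868% to 4.65%).

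The share of isolated intervals ran against the density of all intervals, with a Spearman rho of -0.92 over the 20 chromosomes. The density enters the rule, since a chromosome with fewer intervals has longer gaps, so this order is a property of the definition as much as of the chromosomes. Counted per length, the isolated intervals varied less. Their density, with length taken up to the last interval of a chromosome, was 0.129 per Mb over all 20 chromosomes. The lowest value was 0.0812 on chromosome 17, from 7 isolated intervals, and the highest was 0.176 on chromosome 4, from 32. This is a range of 2.16 times, against 3.72 times for all intervals, for which chromosome 2 had 1.70 and chromosome 10 had 6.34 per Mb. Even chromosome 10, with the most intervals per Mb, had 0.122 isolated intervals per Mb. The gap limit enters these densities too, and they are given without confidence intervals.

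**Figure D2:**
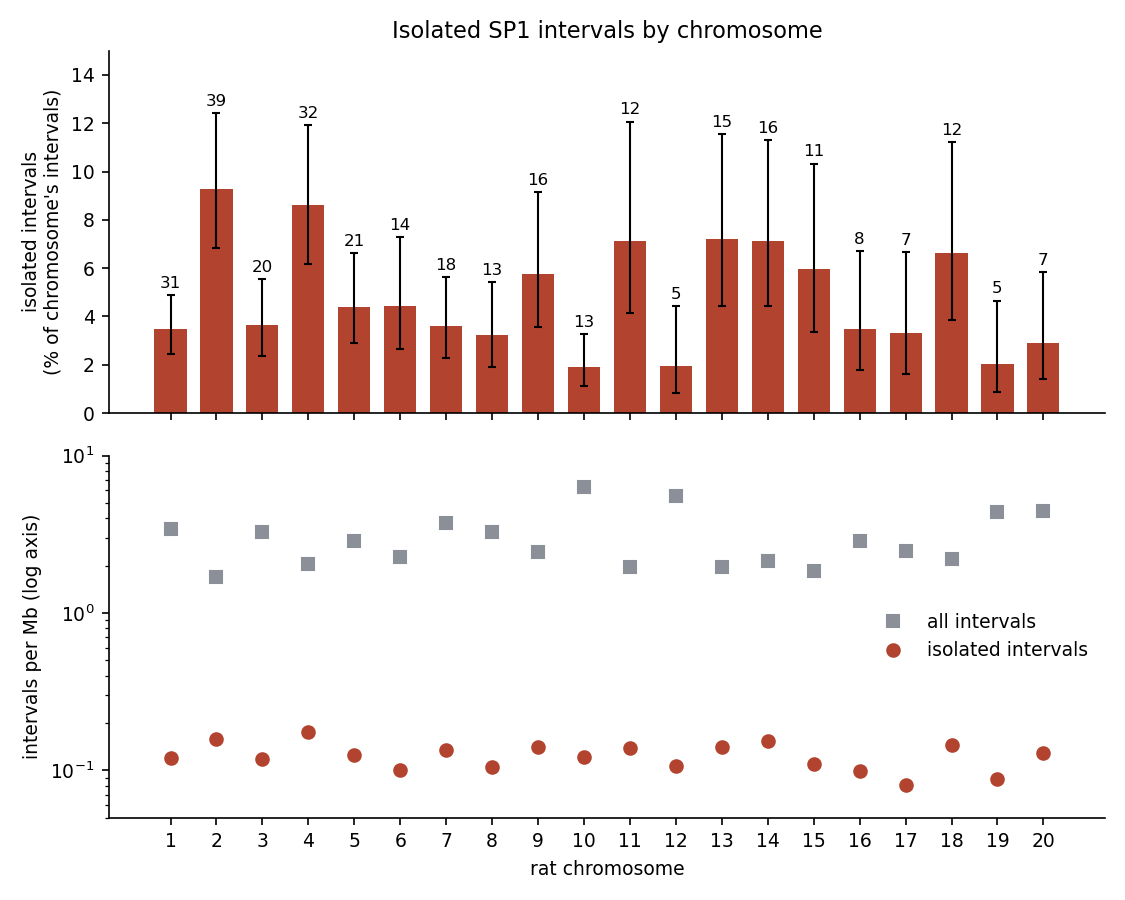
The upper panel gives the isolated intervals as a percentage of the intervals of each rat chromosome, with Wilson 95% confidence intervals as error bars and the number of isolated intervals above them. The lower panel gives the intervals per Mb (log axis) for all intervals (squares) and isolated ones (circles): the share is highest on chromosomes 2 and 4 and lowest on 10, 12 and 19, whereas the isolated intervals per Mb stay between 0.0812 and 0.176.

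The isolated intervals were enriched slightly less than the others. Fold enrichment compares IP tags with the tags expected from input at the best summit of an interval. In the formula used here the same constant is added to both before they are divided. With expectations this low, the fold is therefore well below the plain ratio of the tags. The isolated intervals had a median fold of 5.70 (95% interval 5.28 to 5.89 from order statistics, quartiles 4.52 and 7.16). In the other 6734 intervals the median was 5.97 (5.91 to 6.02; quartiles 4.76 and 7.53). The isolated intervals had the lower median on 15 of 20 chromosomes and the higher on 5, without confidence intervals for the medians of single chromosomes. Among the 15, the isolated and other medians were nearly equal on chromosome 9, at 6.018 and 6.022, and on chromosome 11, at 6.029 and 6.032. The largest difference toward lower values was on chromosome 12, with medians of 4.52 from 5 isolated intervals and 6.18 from the others, and the largest toward higher values on chromosome 17, with 7.54 from 7 and 5.57. These chromosomes have few isolated intervals each.

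Shares past fixed values are given beside those of all intervals. A fold of at least 5 was reached by 198 isolated intervals or 62.9% (57.4% to 68.0%), where 70.2% of all 7049 intervals reached it. A fold of at least 10 was reached by 22 or 6.98% (4.66% to 10.3%), against 9.04% of all intervals, and a fold of at least 20 by 1 interval, against 0.440%. A −log10 q, the significance of the peak after correction for multiple testing, of at least 5 was found at 123 or 39.0% (33.8% to 44.5%), against 43.4% of all intervals, and one of at least 10 at 31 or 9.84% (7.02% to 13.6%), against 15.0%. In the other intervals alone, 15.2% had a −log10 q of at least 10 (14.4% to 16.1%). When the others were weighted to the chromosomes on which the isolated intervals lay this share was 15.3%, so the difference was as large within this weighting. The share with a fold of at least 5 was 71.1% with the same weights.

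In a list limited to stronger peaks the difference in median shrank or turned. When gaps were measured anew between intervals with a −log10 q of at least 5, 427 intervals were isolated, 304 of them not isolated in the full list. Their median fold was 7.89, above the 7.71 of the rest. The medians were 10.5 and 10.6 among intervals whose −log10 q was 10 or more, and 6.77 and 6.79 among those enriched 5-fold or more. The difference in the share with a −log10 q of at least 10 shrank too. In the list limited to a −log10 q of at least 5, this share was 34.0% in the isolated intervals and 34.5% in the rest. In the list limited to a fold of at least 5, the shares were 18.8% and 21.4%.

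Spacing and enrichment did not follow one direction over the whole list. The intervals with a neighbour within 10 kb also had a low median fold, 5.60 (5.43 to 5.70), and those with a nearer gap of 10 to 100 kb and of 100 to 500 kb had medians of 6.03 and 5.97. The share with a −log10 q of at least 10 was 12.2% (10.7% to 13.9%) with a neighbour within 10 kb, 16.7% (15.5% to 18.0%) at 10 to 100 kb, 14.8% (13.1% to 16.6%) at 100 to 500 kb and 9.84% in the isolated intervals. The isolated and the most crowded intervals thus resembled each other in median fold and width and had overlapping intervals for these shares. A fold of at least 20 was reached by 15 of 1670 intervals with a neighbour within 10 kb, or 0.898% (0.545% to 1.48%). It was reached by 1 of 315 isolated intervals, or 0.317% (0.0561% to 1.78%), and these confidence intervals overlapped. Within the isolated intervals, fold did not follow the nearer gap, with a Spearman rho of 0.04 over 315 intervals of 1 library.

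**Figure D3:**
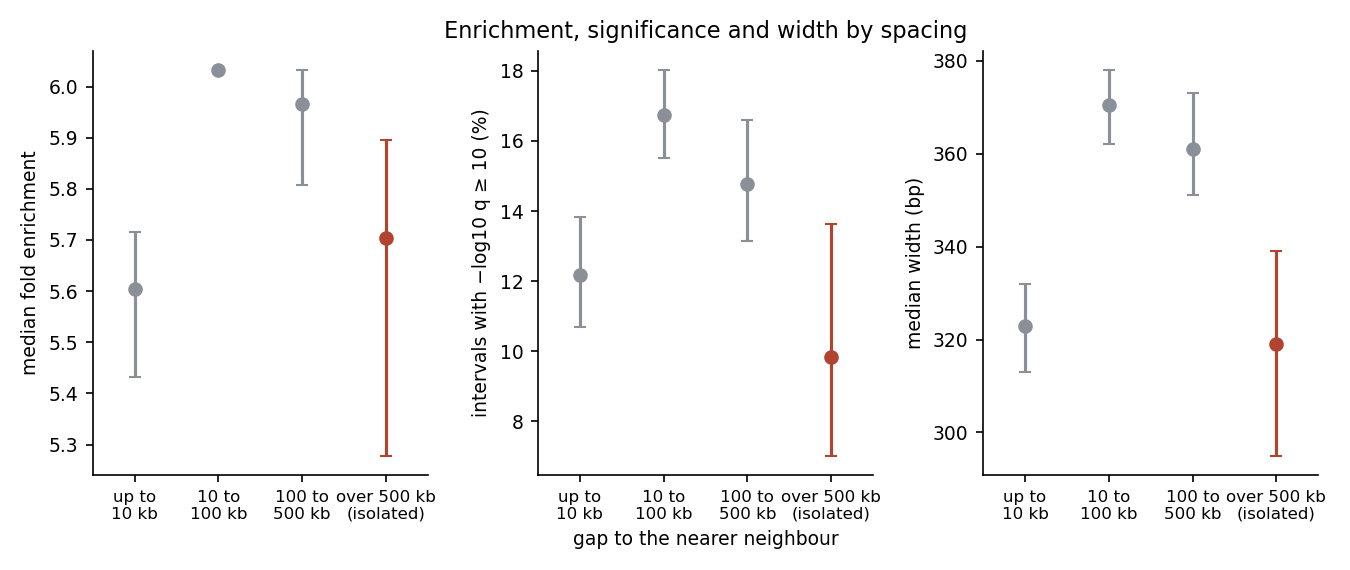
Median fold enrichment (left), the percentage of intervals with a −log10 q of at least 10 (centre) and median width in bp (right) are plotted for 4 classes of gap to the nearer neighbour, with 95% intervals as error bars; the vertical axes do not start at 0. The isolated class, over 500 kb, and the class with a neighbour within 10 kb lie below the 2 classes between them in all 3 panels.

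Isolated intervals were also narrower. Their median width was 319 bp (295 to 339), against 356 bp (350 to 361) in the others and 322 bp in intervals with a neighbour within 10 kb. The median was narrower than that of the others on 14 of 20 chromosomes. A width of at least 500 bp was found at 60 isolated intervals or 19.0% (15.1% to 23.7%), against 26.5% (25.4% to 27.5%) of the others, and a width under 250 bp at 94 or 29.8% (25.1% to 35.1%), against 24.9% (23.8% to 25.9%). Together they covered 121 kb. The narrowest possible in this list, 192 bp, was the width of 6 isolated intervals, all with 4 to 7 tags. Width rose with tags, with a Spearman rho of 0.49 in the isolated intervals and 0.47 in the others. Both come from the same tags, so this is not an independent property.

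Few tags stood behind each isolated interval. Whole tag counts were recovered from the fold and the p-value of each summit, a tag being a read or read pair that the peak caller counted once. The isolated intervals had a median of 7 IP tags (quartiles 5 and 9), the same median as the others (quartiles 6 and 9). The counts at the low end were higher in share, with 89 isolated intervals or 28.3% (23.6% to 33.5%) at 5 tags or fewer, against 22.7% (21.8% to 23.8%) of the others. The confidence intervals of these 2 shares overlapped slightly. Conversely, 31 isolated intervals or 9.84% had 12 tags or more, against 14.1% of the others, and 2 or 0.635% had 16 to 20 tags, against 195 or 2.90%. More than 20 tags were found at 3 isolated intervals or 0.952% (0.324% to 2.76%) and at 1.60% (1.33% to 1.93%) of the others. The confidence intervals of these last 2 shares overlapped too. At counts as low as the median of 7 tags, folds took steps: 1 more tag at the genome-wide expectation of 0.326 tags adds 0.754 to the fold. The 315 isolated intervals had 165 distinct folds, and 19 of them shared the fold of 4.52 with 5 tags each. For 294 isolated intervals, or 93.3%, the exact Poisson 95% interval of the fold enclosed the median of all intervals, 5.95. This share was not computed for the other intervals, which also had a median of 7 tags. It describes the low tag counts and is not a result particular to the isolated intervals. A single interval of typical tag count could not be told from the median of the list at this depth.

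**Figure D4:**
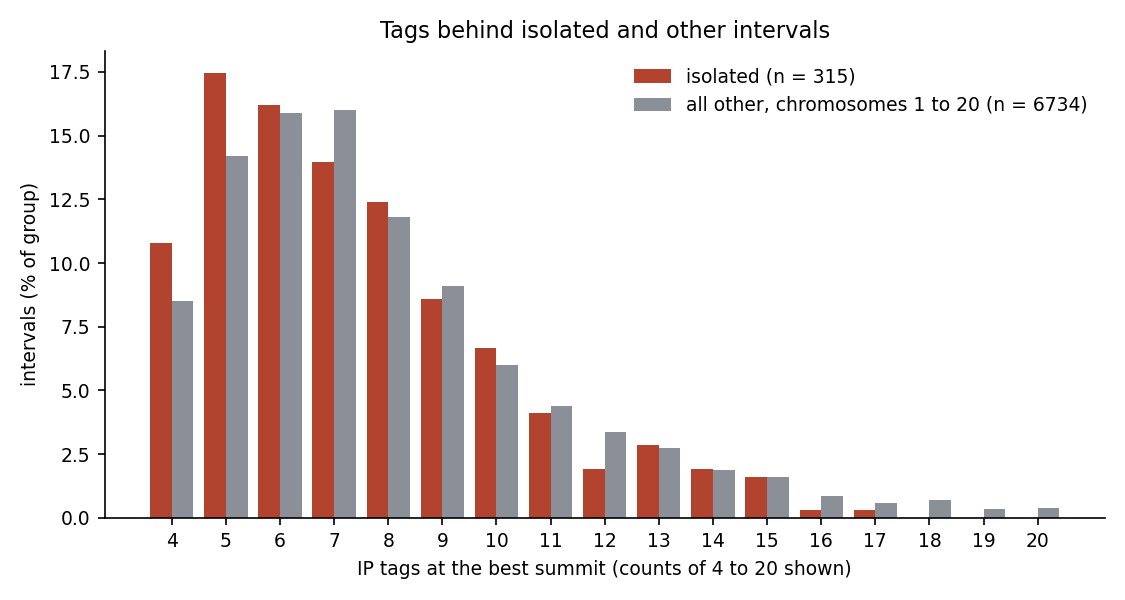
Bars give the percentage of isolated intervals (red) and of all other intervals on chromosomes 1 to 20 (grey) that have each number of IP tags at the best summit, for counts of 4 to 20. The isolated intervals have the larger share at 4 and 5 tags, 10.8% and 17.5% against 8.52% and 14.2%, and the smaller share at each count from 16 to 20.

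The expected tags, which follow the input library where it is locally raised, were similar in both sets. The expectation was 1.12 times the genome-wide one at the median of the isolated intervals (upper limit 1.16) and 1.11 times at that of the others (upper limit 1.12). It lay at the genome-wide value, the lowest possible, in 84 isolated intervals or 26.7% (22.1% to 31.8%) and in 30.5% (29.5% to 31.7%) of the others. It was at least 2 times that value in 9 isolated intervals or 2.86% (1.51% to 5.34%) and in 2.44% (2.09% to 2.83%) of the others, and at least 5 times in 1 isolated interval and 40 others.

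That 1 interval had the highest expectation among the 7049 intervals. It lay on chromosome 14, positions 46237381 to 46237585, where 1341 IP tags (exact Poisson 95% interval 1270 to 1415) stood against 1022 expected. The expectation was 3133 times the genome-wide one. The fold of 1.31 (1.24 to 1.38, with the 1022 expected tags taken as known) was the lowest of all isolated intervals. The interval's −log10 q of 16.4 nevertheless put it among the 31 with at least 10. It was 205 bp wide, with gaps of 1.92 Mb on one side and 10.8 Mb on the other. By IP tags it ranked 1 among the 7049 intervals, and the next isolated interval had 62. The next highest expectation in an isolated interval was 4.63 times the genome-wide one, on chromosome 9 at positions 2890517 to 2890835, with 8 tags and a fold of 3.58. Input and IP were thus both high at this place, and the part of the input in its IP tags was not tested further.

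**Figure D5:**
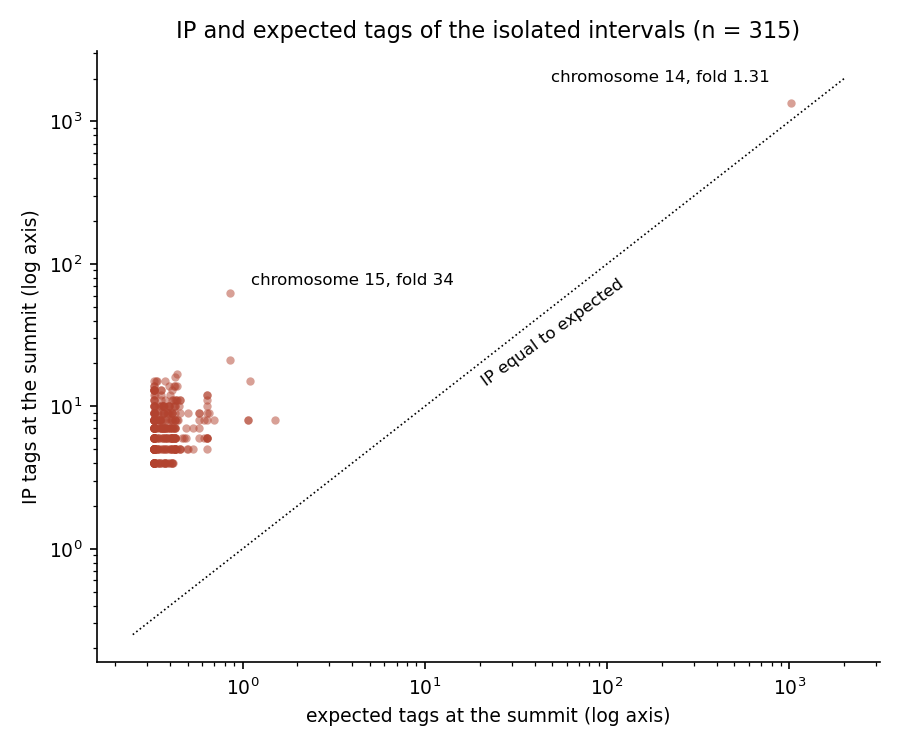
Each point is 1 of the 315 isolated intervals, placed by the expected tags (horizontal, log axis) and the IP tags (vertical, log axis) at its best summit; the dotted line marks IP equal to expected. Nearly all points form 1 cloud of 4 to 21 tags over expectations near 0.326 to 1.51, and the intervals on chromosome 15 (fold 34.0) and chromosome 14 (fold 1.31) stand outside it.

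The strongest isolated interval by fold lay on chromosome 15, positions 41941523 to 41942613, with 62 IP tags (47.5 to 79.5) and a fold of 34.0 (26.2 to 43.4). Its −log10 q was 85.7, it was 1091 bp wide and it ranked 9 by fold among all 7049 intervals. Its neighbours lay 677 kb to the left, with a fold of 8.39 from 11 tags, and 2357 kb to the right, with a fold of 3.74 from 4 tags. The expectation there was 2.62 times the genome-wide one. Its fold interval lay above that of every other isolated interval, since the next highest fold was 12.5 with an upper limit of 19.7. Apart from the intervals on chromosomes 14 and 15, all 313 isolated intervals had folds between 3.5 and 13.

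The next 9 isolated intervals by fold ranged from 12.5 down to 11.3, with 14 to 21 tags, and could not be ranked among themselves at this depth, as the fold intervals of all 9 overlapped that of the highest of them. The highest lay on chromosome 9, positions 50126436 to 50126842, with 17 tags and a fold of 12.5 (7.60 to 19.7), 660 kb from its left and 4785 kb from its right neighbour. On chromosome 2, the interval at positions 231119869 to 231120542 had 15 tags at the genome-wide expectation and a fold of 12.1 (7.08 to 19.4), with gaps of 3474 kb and 647 kb. Chromosome 15 held another of the 10, at positions 95199567 to 95200063, with 15 tags and a fold of 11.97 (7.03 to 19.3).

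Chromosome 6 held 2 of these 9, at positions 33156903 to 33157261 with a fold of 11.9 (7.01 to 19.2) and at positions 96954021 to 96954540 with a fold of 11.3 (6.53 to 18.5). Chromosome 5 also held 2, at positions 22813602 to 22814225 with 16 tags and a fold of 11.9 (7.11 to 18.9) and at positions 103337485 to 103337944 with 15 tags and a fold of 11.6 (6.82 to 18.7). The narrowest of the 10 lay on chromosome 19, positions 41617305 to 41617584, with a width of 280 bp. Its summit had 21 tags at an expectation 2.62 times the genome-wide one, a fold of 11.9 (7.55 to 17.8). The last lay on chromosome 1, positions 211798376 to 211799254, with 14 tags, a fold of 11.3 (6.53 to 18.5) and a width of 879 bp. It was the only one of the 10 with more than 1 Mb free on both sides, 1870 kb and 1476 kb.

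The strongest isolated intervals did not lie beside strong neighbours as a rule. Of the 20 neighbours of these 10, 2 were themselves isolated. The folds of all 20 had a median of 5.28 and ranged from 3.64 to 15.8, where the median of all 7049 intervals was 5.95. The highest was that of the right neighbour of the interval on chromosome 19, with 20 tags, 814 kb away. The neighbours of the remaining isolated intervals were not summarised, so these values are not shown to be particular to the strongest. Among the 6734 other intervals, 218 or 3.24% had a fold above the 12.5 of the second isolated interval.

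The 31 isolated intervals with a −log10 q of at least 10 lay on 14 chromosomes, and chromosomes 4, 10, 11, 12, 17 and 20 had none. They had a median of 13 tags and of 487 bp, against 14 tags and 522 bp in the other intervals past the same value, and a median nearer gap of 710 kb. On chromosome 12 the highest fold of an isolated interval was 5.10, from 6 tags at positions 29062774 to 29063278, and on chromosome 20 it was 5.89, from 7 tags at positions 53509855 to 53510337. Over the 20 chromosomes the highest isolated fold had a median of 10.4.

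The most remote intervals were of ordinary strength. The interval with the longest nearer gap lay on chromosome 11, positions 8734835 to 8735349, with 6.17 Mb free to the left and 5.65 Mb to the right, 10 tags and a fold of 7.89 (4.16 to 13.9). The next lay on chromosome 16, positions 37305153 to 37305655, between gaps of 4.63 Mb and 6.95 Mb, with 8 tags and a fold of 6.79 (3.36 to 12.6). On chromosome 3, positions 29161163 to 29162226, an interval of 1064 bp with 2 summits had gaps of 6.20 Mb and 4.04 Mb and a fold of 7.89 (4.16 to 13.9). On chromosome 2, positions 98350450 to 98350934, the gaps were 3.88 Mb and 3.46 Mb and the fold 7.46 (3.82 to 13.5), and on chromosome 4, positions 46042409 to 46042683, they were 3.90 Mb and 3.27 Mb with a fold of 5.05 (2.31 to 10.1). None of the 5 was among the 31 with a −log10 q of at least 10. These 31 were 9.84% of the isolated intervals, a share too low for 5 intervals to show a difference.

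Isolated intervals often followed one another. They formed 221 runs without another interval between them, of which 155 held 1, 47 held 2 and 19 held 3 or more, so that 160 isolated intervals had another as the next in line. Isolated intervals next to each other share a gap over 500 kb that the rule counts for both, so the rule itself favours runs. How many runs the spacing alone would give was not tested. The longest run, 5 intervals, lay on chromosome 10, the densest chromosome of the list, between positions 17751522 and 26432950. From the last interval before it to the next after it, these 5 were alone in 10.8 Mb. Their folds from left to right were 6.51, 3.72, 4.46, 4.36 and 3.70, from 8, 4, 5, 5 and 4 tags, so that 4 of the 5 were at or near the fewest tags with which an interval was listed. The widest territory of a run of at least 3 lay on chromosome 11, where 3 intervals between positions 8734835 and 14979787, the most remote one among them, were alone in 14.48 Mb, with 6 to 11 tags. On chromosome 4, 4 intervals between positions 19374455 and 28523001 were alone in 12.3 Mb, with 6 to 10 tags.

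Several summits in 1 interval, which the peak caller reports where the tag density has more than 1 top, were found at 13 isolated intervals or 4.13% (2.43% to 6.93%) and at 5.02% (4.52% to 5.57%) of the others. All 13 had 2 summits, a median of 393 bp apart (126 to 615 bp), and the weaker summit had 6 to 12 tags. Of the 13, 10 were among the 111 intervals with more than 1 Mb free on both sides, or 9.01% (4.97% to 15.8%), and 3 were among the 204 with a nearer gap up to 1 Mb, or 1.47% (0.501% to 4.23%). This split at 1 Mb was looked at after the values were seen. The highest fold among the 13 was on chromosome 6, positions 46580696 to 46581250, with 14 tags and a fold of 10.5 (6.03 to 17.1), followed by chromosome 3, positions 103982724 to 103983763, with 12 tags and a fold of 9.58 (5.31 to 16.2). The summit itself lay at a median of 46.8% of the width in isolated intervals (44.5% to 48.9%) and 47.9% in the others (47.5% to 48.5%).

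The limit of 500 kb cut through a continuous range of gaps. Just inside it were the intervals on chromosome 8, positions 61355973 to 61356285, with a nearer gap of 502 kb and a fold of 3.70, on chromosome 6, positions 68763914 to 68764209, with 503 kb and 7.22, and on chromosome 1, positions 221283431 to 221283832, with 505 kb and 6.03. Just outside were the intervals on chromosome 1, positions 74165591 to 74166169, with 499.5 kb and a fold of 5.19, on chromosome 9, positions 25842388 to 25842702, with 499 kb and a fold of 13.3, and on chromosome 4, positions 150388148 to 150388451, with 498 kb and a fold of 4.90. The interval on chromosome 9 thus missed the set by about 1 kb with a fold above that of the second isolated interval.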

How the data were processed

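ChIP-seq for SP1 was analysed from 1 peak list of the IP library; the input library enters through the expected tags. Per the labels, crosslinking was for 10 minutes with 1% formaldehyde, libraries had 15 cycles of amplification, and reads were paired-end of 150 bases. The submitters' processing notes name fastp 0.20.0, Bowtie2 2.2.6, SAMtools 1.10 and MACS2 2.2.7.1, among others, without their settings. The authors deposited, per summit, a fold enrichment, p and q values as −log10, and a score. The fold is linear and compares IP with background, with a constant added to both in the formula given below. The score is 10 times the −log10 q with decimals dropped. No replicates were pooled.

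Intervals, gaps, shares (Wilson) and medians (order statistics) were computed in Python (3.11.15) using pandas 2.3.3, scipy 1.17.1 and numpy 2.4.6; figures were drawn with matplotlib 3.10.9. Each interval carries the values of its summit of highest fold. For each summit, whole tag counts up to 2999 were tried with fold = (tags + 1)/(expected + 1) and the Poisson tail, and accepted within 0.0002 of the deposited −log10 p; all 7525 summits had 1 match. These formulas are not stated in the sources used here. The rule and the tag recovery were tested on simulated data. The depth of each library is unknown otherwise. Wilson and order-statistic intervals cover the spread over listed intervals taken as independent, and Poisson intervals cover the counting error of tags. None covers variation between libraries. The 80 intervals on the X and Y chromosomes and scaffolds were left out.

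The members, and the values looked at, were chosen with earlier results of these data known. Regions named are the 10 isolated intervals of highest fold, the 5 with the longest nearer gap, the 3 just inside and the 3 just outside the limit, and the strongest on a chromosome; those with high input, with 2 summits and in runs were named after their values were seen. Gene positions and promoter sequences at hand are of the assembly GRCr8 and were not used here.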

Additional observations from a re-analysis of the deposited data

How the results depend on the processing

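Number and share of isolated intervals depended on the gap limit: 764 (10.8%) at 250 kb and 111 (1.57%) at 1 Mb, with median nearer gaps of 438 and 1376 kb, and 9.01% with several summits at 1 Mb. Limiting the list before gaps were measured, to −log10 q values from 5 or from 10 upward or to folds from 5 upward, left the number within 1.5 times (427, 412 and 346) but gave shares of 13.95%, 39.1% and 6.99%, median isolated folds of 7.89, 10.5 and 6.77, median other folds of 7.71, 10.6 and 6.79, widths of 451, 521 and 397 bp, and 10, 13 and 8 tags. The nearer gap was 990 and 1149 kb under the first and second of these, several summits were 7.26% under the first, and a −log10 q of at least 5 was reached by 100%, 100% and 62.1%. A threshold on strength takes out weak intervals by construction, which raises these values and lengthens gaps. Joining intervals within 10 kb gave a share of 5.58%, a median other fold of 6.03 and 11.4% with several summits. A joined site carries the summits of all its intervals, so it has several by construction. Gaps from summit to summit, the ends of chromosomes and the mean over summits moved no result beyond its confidence interval.

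The median fold of isolated intervals was below that of the others in 8 of 9 alternatives. It was above it (7.89 and 7.71) once the list started at a −log10 q of 5. The medians were nearly equal in lists from a fold of 5 (6.77 and 6.79) and from a −log10 q of 10 (10.5 and 10.6). The alternatives are not separate checks, since they share members, and gaps from summit to summit gave the same 315 intervals. In all, 61 of 99 alternatives stayed within the confidence interval or 1.5 times the count. The alternatives for tags, for the genome-wide expectation, for a −log10 q of at least 10 and for the weights by chromosome were chosen after seeing the data; 7 of them, outside those given here, moved, and all were higher. The 3 planned results on GC boxes, start sites and GC content need sequence or genes of the list's build and were not run. No replicate was left out, since a group has 1 library. No paired analysis was possible because there are no replicate pairs. A summit at the genome-wide expectation was listed from 4 tags, so fainter sites inside the gaps cannot be seen at this depth.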
